A study of Mus musculus with 8 samples.

Results

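Integrins are heterodimers of an alpha and a beta chain that span the plasma membrane and tie the extracellular matrix to the actin cytoskeleton. The loci of 5 integrin chains were examined for chromatin accessibility in NIH3T3 cells, an immortalised mouse embryo fibroblast line. The alpha chains were Itga5, which pairs with Itgb1 as a fibronectin receptor, and Itgav, which pairs with Itgb1, Itgb3 or Itgb5 in receptors that recognise the RGD motif of vitronectin and fibronectin. Itgb1 is the beta chain shared by many fibroblast integrins, while Itgb3 and Itgb5 are the beta chains of vitronectin receptors. In fibroblasts these receptors gather in focal adhesions, where talin and kindlin bind the tails of the beta chains.

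The members were taken by position, as all peaks that overlap 5 windows on the mouse build mm9, with earlier results of these data known. The windows were chr15:103150001-103220000 for Itga5, chr2:83540001-83670000 for Itgav, chr8:131180001-131280000 for Itgb1, chr11:104450001-104550000 for Itgb3 and chr16:33800001-33970000 for Itgb5. They hold 570 kb in all. ATAC-seq, in which the Tn5 transposase cuts exposed DNA, was applied to cells cultured for 24 h on G2 or on G128, with 2 libraries per culture and 1 peak list per library. The series concerns hydrogels of polyvinyl alcohol and gelatin, and the labels do not explain the names G2 and G128 or give any other treatment. RNA samples of the same cultures were not analysed here, and the labels do not say whether replicates were separate cultures, so p-values measure only the spread between these libraries. Peaks sharing at least 1 bp were merged into 45915 regions over the genome, of which 57 lay in the windows and 33 of these (57.9%) were listed in all 4 libraries, against 60.5% of all regions. A region is called by its locus and its number along the chromosome.

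No annotation of mm9 was used here, so no region is assigned to a promoter, exon or intron, or to one gene of its window. In RefSeq on GRCm38.p6 each window is longer than its integrin gene. The protein-coding genes next to them are Zfp385a and Gtsf1 for Itga5, Zc3h15 and Fam171b for Itgav, Nrp1 and Ccdc7a for Itgb1, Myl4 and Efcab13 for Itgb3, and Muc13 and Umps for Itgb5. Accessibility in a bulk library sums over cells, so a site open in fewer cells and a site less open in each cell cannot be told apart. The label NIH3T3 was not checked against marker genes.

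Promoters of 4 of the 5 genes were found in RefSeq on GRCm38.p6 and are shown as sequence context for loci of one receptor family. Each runs 5′ to 3′ on the strand of the gene over 300 bases, of which the last 50 follow the start of transcription. Capitals mark letters matching 1 of 6 motifs searched on both strands, which were AP-1 (TGANTCA), TEAD (GGAATG), Sp1 (GGGCGG), ETS (CCGGAA), NF-Y (CCAAT) and the CArG box of SRF. The peaks are on mm9, and none was placed on these sequences. On GRCm38.p6 they lie at chr15:103366742-103367041 on the minus strand for Itga5, and on the plus strand at chr2:83724147-83724446 for Itgav, chr8:128685404-128685703 for Itgb1 and chr16:33829415-33829714 for Itgb5.
Itga5: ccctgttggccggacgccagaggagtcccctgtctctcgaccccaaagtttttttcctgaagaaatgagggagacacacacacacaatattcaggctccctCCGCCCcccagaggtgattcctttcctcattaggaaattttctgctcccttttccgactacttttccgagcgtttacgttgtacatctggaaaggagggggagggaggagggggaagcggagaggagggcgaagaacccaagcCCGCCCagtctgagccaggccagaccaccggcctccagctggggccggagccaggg
Itgav: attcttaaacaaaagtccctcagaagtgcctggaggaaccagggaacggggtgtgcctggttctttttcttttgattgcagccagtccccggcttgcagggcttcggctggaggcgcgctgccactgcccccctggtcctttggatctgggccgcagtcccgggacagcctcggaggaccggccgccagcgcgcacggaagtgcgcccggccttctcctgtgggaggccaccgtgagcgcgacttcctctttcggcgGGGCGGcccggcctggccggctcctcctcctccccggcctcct
Itgb1: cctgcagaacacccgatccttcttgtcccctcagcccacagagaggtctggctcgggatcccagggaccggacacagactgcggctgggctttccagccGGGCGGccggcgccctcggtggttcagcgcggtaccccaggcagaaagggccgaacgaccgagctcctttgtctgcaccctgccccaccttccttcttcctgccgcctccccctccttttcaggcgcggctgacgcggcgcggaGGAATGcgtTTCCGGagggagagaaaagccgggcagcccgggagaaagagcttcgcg
Itgb5: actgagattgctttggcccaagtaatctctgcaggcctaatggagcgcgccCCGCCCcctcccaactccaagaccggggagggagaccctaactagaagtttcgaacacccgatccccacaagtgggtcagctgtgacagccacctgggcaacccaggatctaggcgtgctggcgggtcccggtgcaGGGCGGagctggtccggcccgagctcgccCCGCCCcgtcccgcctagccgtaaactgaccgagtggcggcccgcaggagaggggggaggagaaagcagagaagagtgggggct

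The Sp1 letters were found in all 4 promoters, with 2 matches in Itga5, 1 in Itgav, 1 in Itgb1 and 3 in Itgb5, against 35.7% of all 32851 promoters of this length with a match. The TEAD letters (14.7% of all promoters) and the ETS letters (14.9%) were found in that of Itgb1, 7 bases before and 3 bases after the start, and in none of the others. AP-1, NF-Y and CArG letters, held by 7.81%, 37.4% and 1.63% of all promoters, were in none of these 4 promoters. No matches overlapped each other. G and C made up 58.7% of the Itga5 promoter, 67.3% of those of Itgav and Itgb1 and 65.7% of that of Itgb5, where the median of all promoters was 52.7%. The Itgb1 promoter held 27 CpG dinucleotides, that of Itgav 24, that of Itgb5 20 and that of Itga5 13, against a median of 7.

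All 5 loci held accessible regions on both cultures, in very different numbers. Itgb5 had 23 regions, Itga5 13, Itgb3 11, Itgav 6 and Itgb1 4. Per 100 kb of window this was 18.6 regions at Itga5, 13.5 at Itgb5, 11 at Itgb3, 4.62 at Itgav and 4 at Itgb1. The whole chromosomes, counted from their first to their last region, had between 1.47 regions per 100 kb on chromosome 16 and 3.25 on chromosome 11. The windows were placed around genes and the chromosomes were not, so these densities are a description. Neighbouring regions within a window were separated by a median of 4.63 kb, from 105 bp at Itgb1 to 67.5 kb at Itgav. The window edges cut close to further regions at Itga5, where the nearest outside lay 1.09 kb to the left and 4.05 kb to the right, and at Itgb1, with one 1.00 kb to the left. The nearest outside regions lay at least 8.004 kb from the Itgb5 window, and at least 27.7 kb from those of Itgav and Itgb3. Inside, the outermost regions stood between 0.723 kb and 46.6 kb from the edges.

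**Figure D1:**
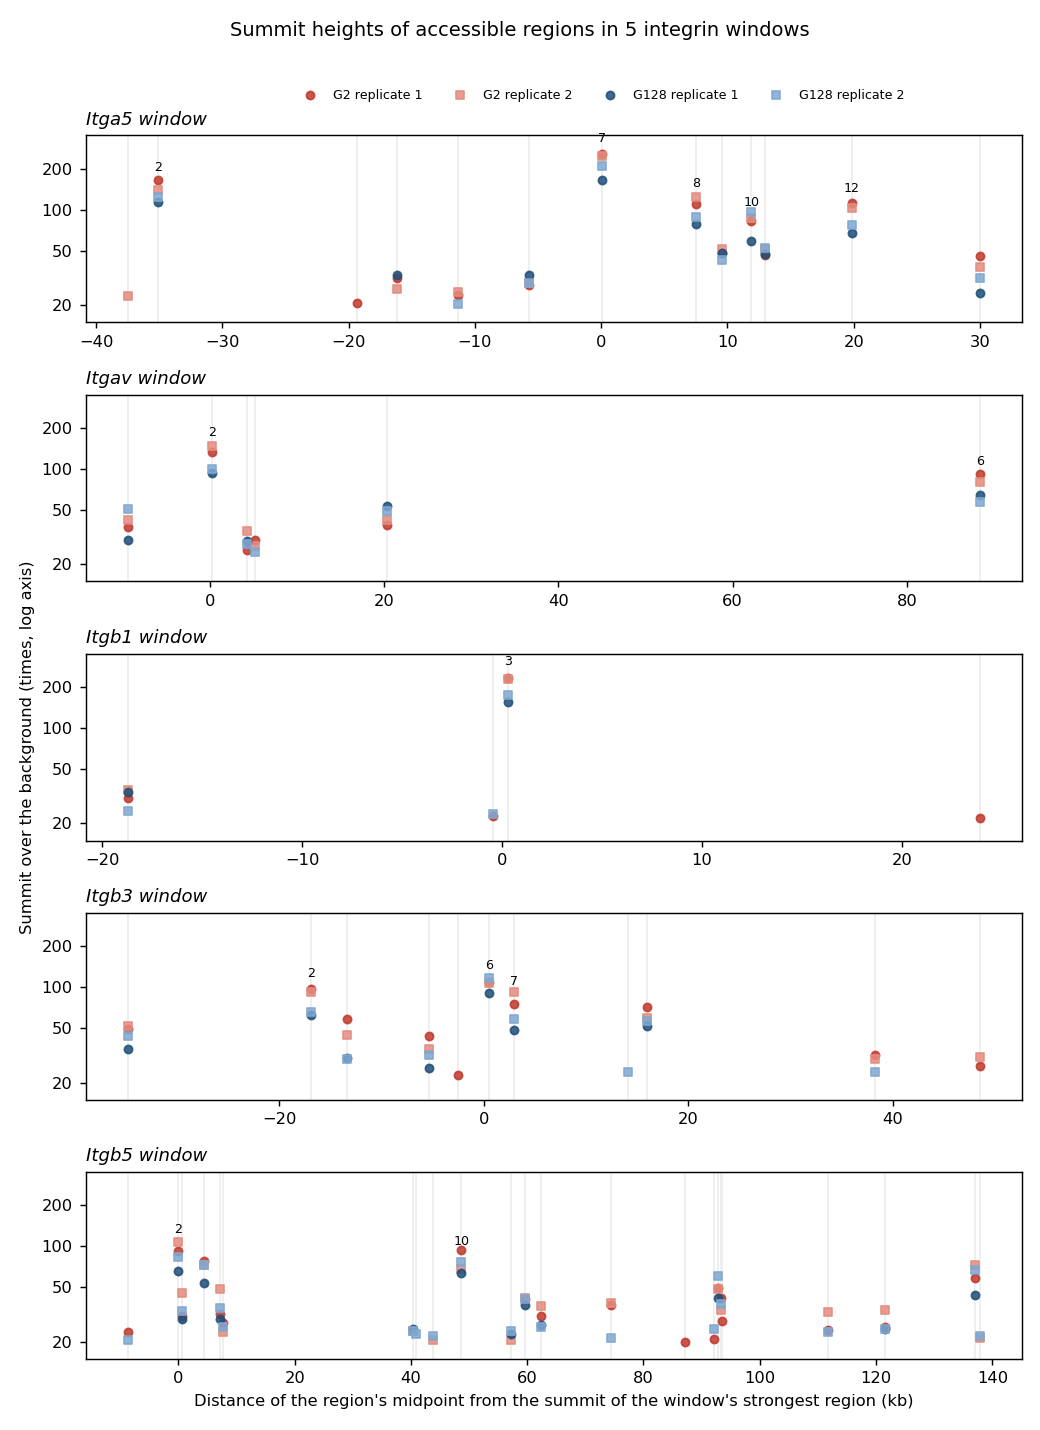
Summit height over the background (vertical, log axis) of each region against its distance in kb from the summit of the strongest region of the window (horizontal), with 1 point per library that listed the region. Numbers mark the tallest regions listed in all libraries. Itgb1 has a single tall region, and Itga5 has tall regions up to 35.1 kb from its strongest one.

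Counts of peaks in the windows did not separate the cultures. The lists held 52 and 47 peaks there in G2 replicates 1 and 2, against 42 and 52 in G128 replicates 1 and 2. The groups overlapped, and the G2 mean of 49.5 ± 3.54 was 1.05 times the G128 mean of 47.0 ± 7.07 (SD, n = 2 each). Over the whole lists the ratio of peaks was 1.195. A two-sided exact permutation test of the counts in the windows gave p = 1, where the design allows no p under 0.333. The mean difference of 2.5 peaks became -2.5 without G128 replicate 1 and 0 without G2 replicate 1.

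By locus, Itga5 had 12 and 12 peaks on G2, against 13 and 11 on G128. Itgav had 7 and 6 on G2, against 7 and 6 on G128. Itgb1 had 4 and 2 on G2, against 2 and 4 on G128. The mean number of peaks was thus equal between cultures at these loci, at 12, 6.5 and 3. Itgb3 had 10 and 9 peaks on G2, against 7 and 9 on G128, and Itgb5 had 19 and 18 on G2, against 13 and 22 on G128. At Itgb3 the cultures met at 9 peaks, and at Itgb5 the G2 libraries lay between the G128 libraries.

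**Figure D2:**
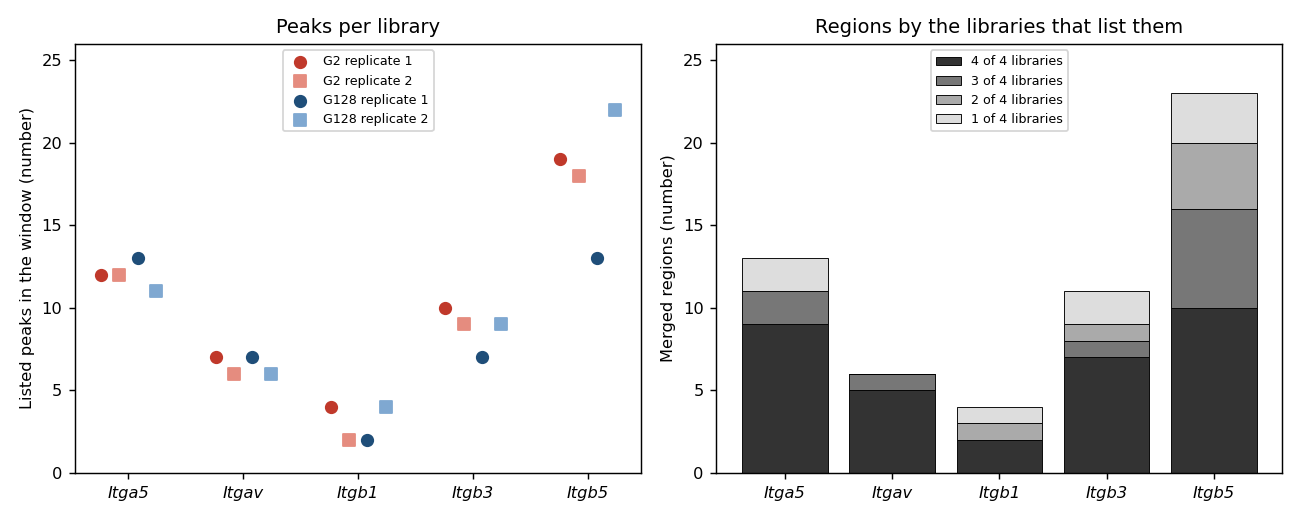
Left, listed peaks in each window (vertical) by locus (horizontal), 1 point per library, with G2 to the left of G128; right, merged regions of each window by how many of the 4 libraries listed them. The groups overlap at every locus, and Itgb5 has both the most regions and the most regions missing from at least 1 library.

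The bases covered by peaks were more on G2. Peaks covered 25087 and 27046 bp of the windows in the G2 libraries, against 18192 and 22627 bp in the G128 libraries. Coverage in each G2 library exceeded that in each G128 library, by a ratio of means of 1.28, where that over the whole lists was 1.24. The difference of 5657 bp was 3439.5 bp without G128 replicate 1. By exact permutation this had p = 0.333, the floor of the design. The ratio was 1.24 at Itga5, 1.24 at Itgav, 1.28 at Itgb1, 1.33 at Itgb3 and 1.30 at Itgb5, and at Itgb1 the groups overlapped. The summed signal of the windows' peaks, the value that the authors' peak caller gave each peak, was 0.0909% and 0.0934% of the list total on G2, against 0.0834% and 0.0866% on G128. Counted as peaks the order was the other way, with 0.123% and 0.113% of the listed peaks on G2, against 0.129% and 0.138% on G128. The signal per covered bp was 1.03 and 1.06 in the G2 libraries, against 0.829 and 0.904 in the G128 libraries, a ratio of means of 1.202. Over the whole lists it was 1.39 and 1.38 on G2, against 1.169 and 1.2504 on G128, a ratio of 1.15.

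Depth differed between libraries and was read from the steps of the deposited p-values. The mean of the background was 1.10 and 1.37 overlapping intervals per bp in the G2 libraries, against 1.05 and 1.41 in the G128 libraries. The height of a summit is given as its pileup divided by this mean, in times the background. The weakest listed peaks stood at 18.2 to 19.0 times, so a region missing from a list had no peak past the caller's threshold and is not shown to be closed. Over the 27768 regions listed in all libraries, the median summit was 67.3 and 68.7 times the background on G2, against 50.3 and 58.1 times on G128. This general shift was 0.33 on the log2 scale, and differences were tested after each library's own median had been subtracted.

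The tallest regions of the 5 windows were at Itga5 and Itgb1. Itga5 region 7, at chr15:103188335-103190211 and 1877 bp long, reached 254 and 246 times the background on G2, against 164 and 208 times on G128. Itgb1 region 3, at chr8:131209178-131210307 and 1130 bp long, reached 232 and 229 times on G2, against 156 and 174 times on G128. In both regions the G2 libraries lay above the G128 libraries on this unscaled measure, as in 67.6% of all shared regions. Itga5 region 7 stood above 89.5 to 91.4% of all shared regions of its library, and Itgb1 region 3 above 87.3 to 89.6%.

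Itgav region 2, at chr2:83564077-83565366, reached 134 and 147 times the background on G2, against 93.9 and 100.6 times on G128. Itgb3 region 6, at chr11:104485994-104487954, reached 109 and 107 times on G2, against 90.1 and 117 times on G128. Itgb5 region 2, at chr16:33829315-33829969, reached 92.8 and 107 times on G2, against 66.4 and 83.6 times on G128. Before scaling the groups overlapped at Itgb3 region 6 and not at the others, where G2 lay above, as in 67.6% of all shared regions. After scaling, G2 lay wholly below G128 at Itgb3 region 6, and the groups overlapped at Itgb5 region 2. Itgb5 had no single tallest region, since its region 10, given further on, was higher than region 2 in G2 replicate 1.

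The order from Itga5 through Itgb1, Itgav and Itgb3 to Itgb5 was not firm at every step. Itga5 region 7 exceeded Itgb1 region 3 by 0.14 ± 0.08 on the log2 scale (SD over 4 libraries) and was higher in 4 of 4 libraries. Itgb1 region 3 exceeded Itgav region 2 by 0.74 ± 0.07, also in 4 of 4. Itgav region 2 and Itgb3 region 6 differed by 0.15 ± 0.29, less than the spread, and the order held in 3 of 4 libraries. Itgb3 region 6 exceeded Itgb5 region 2 by 0.29 ± 0.22, in 4 of 4. Summits of different loci depend on how many DNA copies the cells carry there, which was not measured.

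**Figure D3:**
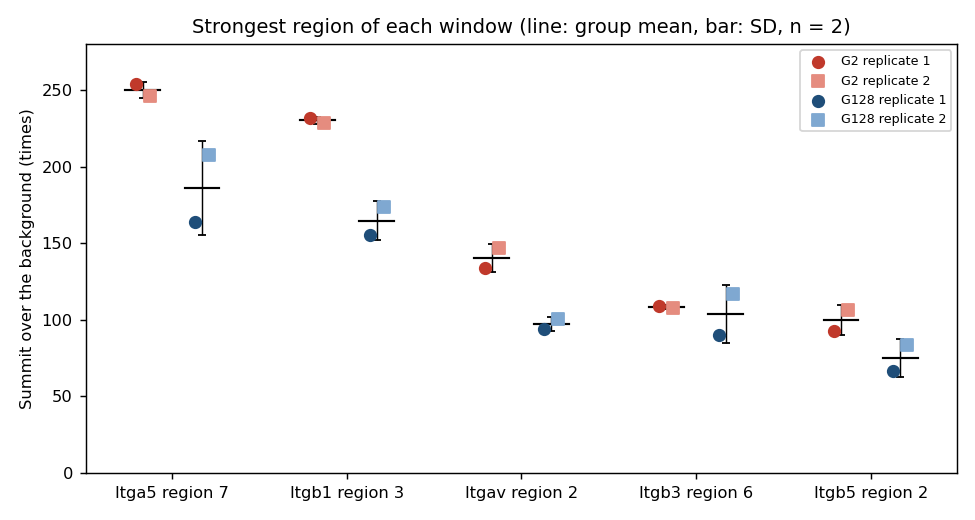
Summit over the background (vertical) of the strongest region of each window (horizontal), with 1 point per library, G2 to the left of G128, lines at group means and bars of 1 SD (n = 2). The regions of Itga5 and Itgb1 stand above the other 3 in both cultures, and the cultures overlap at Itgb3 region 6.

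None of these 5 regions passed the test between cultures after median scaling, made with limma over all 27768 shared regions with Benjamini-Hochberg adjustment. The log2 difference, G2 minus G128, was 0.11 for Itga5 region 7 (95% interval -0.21 to 0.42), 0.16 for Itgb1 region 3 (-0.15 to 0.46) and 0.20 for Itgav region 2 (-0.12 to 0.51). It was -0.25 for Itgb3 region 6 (-0.57 to 0.06) and 0.09 for Itgb5 region 2 (-0.24 to 0.41). Their adjusted p-values in limma were 0.461 to 0.834. These intervals still allow a change of up to 0.57 in size on the log2 scale.

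The test called no region higher on G2 and none lower, at an adjusted p of 0.05, either among the 33 shared regions of the windows or among all 27768, where the share called was 0% in each direction. At an unadjusted p under 0.05, limma gave 5 of the 33 regions (15.2%), where the share over all shared regions was 14.2% (3955 regions). When the fit took an intensity trend into account, 167 of all regions were called higher and 240 lower on G2, and none of these lay in the windows. Without G2 replicate 2 the counts were 53 and 155, again with none in the windows. Other settings did call regions of the windows. Without scaling, which leaves the general shift in, 6 of the 33 were called higher on G2, beside 5869 of all 27768 shared regions. With the replicate number as a block, 1 of the 33 was called lower, beside 656 of all 27768. The lowest adjusted p of the 33 in limma was 0.126, and it was 0.0628 with the trend, 0.00468 without scaling and 0.0142 with the block. The labels give replicate numbers no meaning across cultures.

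Before scaling, the lower G2 summit exceeded the higher G128 summit in 18 of the 33 regions (54.5%), against 67.6% of all shared regions. The higher G2 summit was under the lower G128 summit in 1 of the 33 (3.03%), against 2.79% of all. After scaling, G2 lay wholly above G128 in 9 of 33 (27.3%), against 23.8% of all, and wholly below in 6 of 33 (18.2%), against 21.9% of all. The shares in the windows were thus near those of the genome, with the largest gap in the unscaled count of higher regions.

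**Figure D4:**
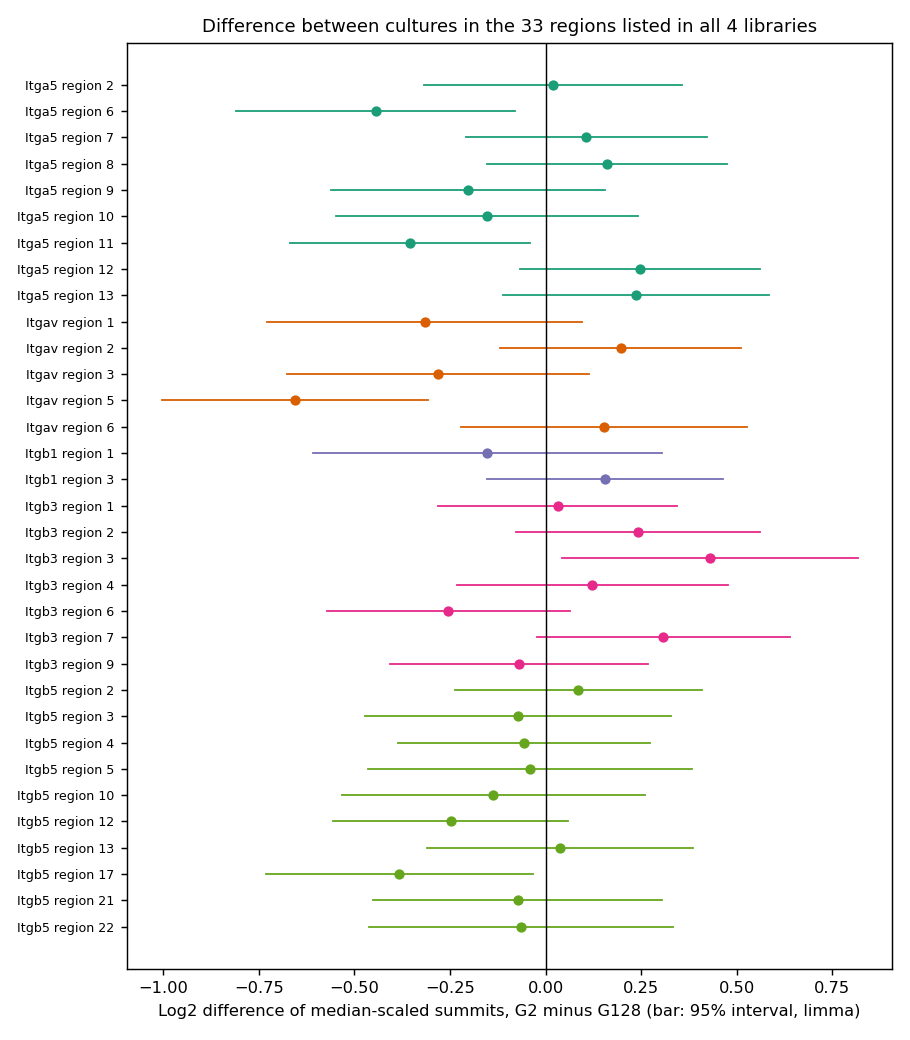
Log2 difference of median-scaled summits, G2 minus G128 (horizontal), for each of the 33 shared regions (vertical), with 95% intervals from limma, coloured by locus. Of the 33 intervals 28 include 0; those of Itga5 regions 6 and 11, Itgav region 5, Itgb3 region 3 and Itgb5 region 17 do not.

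The region with the largest difference in either direction was Itgav region 5, at chr2:83584471-83585103, with its middle 20.3 kb from the strongest summit of that window. Its summit was 39.1 and 42.4 times the background on G2, against 53.1 and 48.9 times on G128. It was the single region of the 33 in which both G2 libraries lay below both G128 libraries before scaling. The G2 mean was 40.7 ± 2.31 times, against a G128 mean of 51.0 ± 2.99 times (SD, n = 2 each). The scaled log2 difference was -0.66 (SE 0.157, interval -1.004 to -0.31), with an adjusted p of 0.126 in limma. Under 11 alternatives it stayed between -0.82 and -0.32, and the adjusted p was 0.0142 to 0.370. The 0.0142 came from the fit with the replicate block, which called the region lower on G2, and no other alternative called it. The highest point of this 633 bp region lay up to 412 bp apart between libraries, the widest scatter of the 33. Its summed deposited signal was 412 and 609 on G2, against 563 and 546 on G128, so that the groups overlapped on that measure.

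Regions at Itga5 and Itgb5 were also among the largest lower on G2, and neither passed the test. Itga5 region 6 stood at 28.2 and 29.2 times the background on G2, against 33.2 and 29.0 times on G128, with a scaled log2 difference of -0.44 (interval -0.81 to -0.08, limma adjusted p = 0.258). Itgb5 region 17 stood at 49.1 and 48.2 times on G2, against 41.7 and 60.9 times on G128, with -0.38 (interval -0.73 to -0.03, limma adjusted p = 0.305). In both the unscaled values of the groups overlapped. The difference of Itga5 region 6 was -0.24 without G128 replicate 1, and that of Itgb5 region 17 was -0.22 without G128 replicate 2.

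The largest differences toward G2 were at Itgb3, where 5 of 7 shared regions had a scaled difference above 0, as had 52.2% of all shared regions. Itgb3 region 3, at chr11:104472935-104473287, reached 58.2 and 44.6 times the background on G2, against 30.4 and 29.8 times on G128. In this region G2 lay wholly above G128 before scaling, as in 67.6% of all shared regions, and after scaling, as in 23.8%. The scaled log2 difference of the region was 0.43 (interval 0.04 to 0.82, limma adjusted p = 0.295). It was 0.22 without G2 replicate 1 and 0.84 with the deposited signal in place of the summit, the lowest and highest of its 11 alternatives. Itgb3 region 7, with its middle 2.96 kb from the summit of region 6, reached 75.5 and 91.3 times on G2, against 48.4 and 58.8 times on G128. Its difference was 0.31 (interval -0.02 to 0.64, limma adjusted p = 0.388), and 0.18 without G2 replicate 2. Region 6 beside it went the other way, with the -0.25 given above, and neither passed the test. Itgb3 region 2, the second strongest of the window by mean summit, reached 97.3 and 92.8 times on G2, against 62.6 and 65.2 times on G128, with a difference of 0.24 (limma adjusted p = 0.484).

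At Itga5, region 12 reached 112 and 104 times the background on G2, against 67.3 and 77.2 times on G128, with a scaled difference of 0.25 (interval -0.07 to 0.56, limma adjusted p = 0.465). Itga5 region 2, at chr15:103153469-103154743 and 35.1 kb from region 7, reached 166 and 140 times on G2, against 114 and 124.7 times on G128, with a difference of 0.02 (limma adjusted p = 0.967). Itgav region 6 lay 88.4 kb from the strongest region of its window and reached 91.0 and 79.6 times on G2, against 64.5 and 57.4 times on G128, with a difference of 0.15 (limma adjusted p = 0.727). Itgb5 region 10 reached 94.6 and 67.9 times on G2, against 63.5 and 77.2 times on G128, with -0.14 (limma adjusted p = 0.776). Itgb1 region 1, the other shared region of that window, reached 30.9 and 35.1 times on G2, against 34.1 and 24.8 times on G128, with -0.15 (limma adjusted p = 0.784). Before scaling the groups overlapped in the last pair of regions and not in the others named here, where G2 lay above, as in 67.6% of all shared regions. After scaling they also overlapped at Itga5 region 2 and Itgav region 6.

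**Figure D5:**
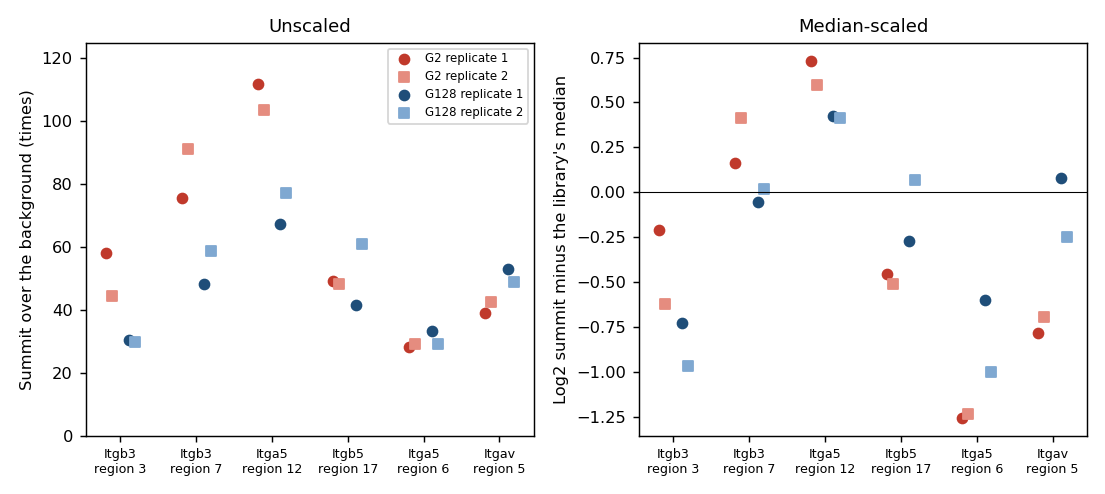
The 3 shared regions with the highest and the 3 with the lowest log2 difference, G2 minus G128 (horizontal), as summit over the background (left) and as log2 summit minus the library's median over shared regions (right), 1 point per library with G2 to the left of G128. Itgav region 5 is the region of the 6 with both G2 libraries below both G128 libraries before scaling.

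The median scaled difference over the shared regions of a window was 0.12 at Itgb3 (7 regions), 0.02 at Itga5 (9), 0.0016 at Itgb1 (2), -0.07 at Itgb5 (10) and -0.28 at Itgav (5), beside 0.01 over all shared regions. Over the 33 regions together it was -0.06, with 15 above 0 (45.5%, against 52.2% of all). Before scaling the medians were 0.45, 0.35, 0.33, 0.26 and 0.05 in the same order of loci, beside 0.34 over all shared regions, and 29 of the 33 were above 0 (87.9%, against 90.0% of all). At Itgav the median was -0.07 without G2 replicate 1, -0.08 without G128 replicate 1, -0.05 without G128 replicate 2 and -0.40 without G2 replicate 2. At Itga5 it was -0.12 without G2 replicate 1, at Itgb5 -0.24 without G2 replicate 2 and -0.025 without G2 replicate 1, and at Itgb3 0.049 without G2 replicate 1. At Itgb1 it was 0.19 without G128 replicate 1 and -0.18 without G128 replicate 2. Leaving out a library also redefined the shared regions, so these medians can cover different regions. The 33 became 35 without G2 replicate 1, 40 without G128 replicate 1 and 34 without G128 replicate 2, and stayed 33 in number without G2 replicate 2. No test was made of these medians, since regions of a window are not replicates.

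Regions missing from at least 1 list were weak and narrow, in the windows as over the genome. They were 24 of the 57 (42.1%), against 39.5% of all regions, with summits of 20.01 to 41.8 times the background where they were listed and a median width of 193 bp. Over the genome, such regions had a median width of 190 bp. A region with peaks in the 2 G2 lists alone occurred once in the windows (1.75%), against 8.32% of all regions. This was Itgb3 region 11, at chr11:104534745-104535192, with 26.4 and 30.7 times the background on G2. No region had peaks in the 2 G128 lists alone, against 0.370% of all regions. When patterns were read from 3 libraries, the count of 1 became 2 without G2 replicate 1 or G128 replicate 1, 6 without G2 replicate 2 and 8 without G128 replicate 2. The count of 0 became 2 without G2 replicate 2 or G128 replicate 1. Of the 24 regions, 21 (87.5%) were missing from G128 replicate 1, the shortest list, and over the genome this was 90.2%.

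At Itga5, region 1 was listed in G2 replicate 2 alone at 23.4 times the background and region 3 in G2 replicate 1 alone at 20.9 times. Itga5 region 4 was missing from G128 replicate 2 and region 5 from G128 replicate 1. Itgav region 4 was likewise missing from G128 replicate 1. At Itgb1, region 4 was listed in G2 replicate 1 alone, and region 2, which is 93 bp long and lies 105 bp from the strong region 3, in G2 replicate 1 and G128 replicate 2. At Itgb3, region 5 was listed in G2 replicate 1 alone, region 8 in G128 replicate 2 alone, and region 10 in all but G128 replicate 1.

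Itgb5, the widest window, had 13 of its 23 regions missing from a list, more than the other 4 windows together. The share of its regions listed in all 4 libraries was 43.5%, against 60.5% of all regions. Of the 13, 4 were missing from G128 replicate 1 alone (17.4% of the 23, against 9.48% of all regions). From G2 replicate 1 alone 2 were missing (8.70%, against 0.558%). Pairs that followed no culture held 4 more, as 2 regions in G2 replicate 1 with G128 replicate 2 and 2 regions in both replicates 2. Each pair held 8.70% of the 23, against 1.24% and 1.73% of all regions. The remaining 3 were listed in 1 library each. Of them 2 were in G2 replicate 1 (8.70%, against 6.14% of all regions) and 1 in G128 replicate 2 (4.35%, against 2.27%). The strongest of the 13 was Itgb5 region 18, with 41.8 and 34.3 times the background on G2, against 37.6 times in G128 replicate 2 and no peak in G128 replicate 1. Itgb5 region 14, 617 bp long, stood at 37.3 and 38.7 times on G2, against 21.3 times in G128 replicate 2 and no peak in G128 replicate 1. Both G2 values of this region were thus above the 1 listed G128 value.

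The place of the summit was much the same over the 4 libraries of both cultures in most shared regions of the windows. Within the 33 shared regions the highest points of the 4 libraries lay within a median of 30 bp of each other, and within 100 bp in 28 regions. The range was taken over all 4 libraries, not between cultures, and has no value over all shared regions beside it. In Itga5 region 7 they lay within 4 bp and in Itga5 region 2 within 7 bp. Beyond 100 bp were Itgav region 5, Itgb5 regions 3 and 10, and Itgb3 regions 3 and 7. The caller split 7 of the 57 regions into several peaks in at least 1 library (12.3%, against 10.4% of all regions), among them the strongest regions of Itga5, Itgav and Itgb1. Itga5 region 7 was 1 peak in both G2 libraries and 2 peaks in both G128 libraries, while Itgav region 2 was 2 and 1 peaks on G2, against 3 and 1 on G128.

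Height and area ranked the loci differently. By the authors' signal, the strongest of the 5 named regions was Itgb3 region 6, the widest of the windows at 1961 bp, with 2889 and 3109 on G2, against 2175 and 2579 on G128. Its best peak ranked 1404 and 1464 in the lists of 42358 and 41585 peaks on G2, against 1231 and 1396 in the lists of 32540 and 37695 peaks on G128. Itgb1 region 3 had a signal of 2265 and 2400 on G2, against 1567 and 1546 on G128. Itga5 region 7, the tallest, had 1893 and 2063 on G2, against 1331 and 1744 on G128. Ranks from lists of different length show no change.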

How the data were processed

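Per the submitters' processing notes, the build was mm9 and the tools included Genrich 0.5, deepTools, SAMtools 1.7 and Bowtie2 2.2.5, with featureCounts 1.5.0-p1 and HISAT2 2.1.0. The roles and settings of these tools, and the treatment of duplicates, mitochondrial reads and Tn5 offsets, are not given in the sources used here. The lists deposited by the authors hold, for each peak, a score, a signal, −log10 values of the p-value and the q-value, and a summit offset. Peaks had been called per library.

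The deposited −log10 p-values gave the summit pileups. The normal quantiles of the lowest 100 distinct values of a list followed a straight line against the logarithm of consecutive whole numbers, with a root mean square error of 1.45e-07 to 1.58e-07, against at least 0.00164 for the next best start. The slope gave a log-normal spread of 0.944, and every pileup lay within 0.0018 of a whole number. This form was inferred from the values and has no independent check. The recovery of pileups was tried only with that form assumed, so the form itself was not tested.

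Where a library had several peaks in a region, the tallest was taken. Log2 summits over the background, minus the library's median over shared regions, were fitted with limma 3.58.1 (R 4.3.3) on all 27768 regions in all 4 libraries without a trend, with Benjamini-Hochberg adjustment, and called at 0.05. Values per library were compared by two-sided exact permutation over 6 assignments. Other steps used pandas 2.3.3, scipy 1.17.1 and numpy 2.4.6 under Python 3.11.15. Regions were named if they were the 2 strongest of each window, those missing from a list, and the 3 with the highest and the 3 with the lowest difference; others are named where a count of 5 or fewer, or a measure of shape, singled them out after their values were seen. Members and rules were chosen with earlier results of these data known. A list of ligands, adaptors and other integrin genes was not placed, for want of an mm9 annotation in this work. Alternatives concerned the caller's threshold, list length, overlap, window edges, scaling, measure, spread, replicate block and each library.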

Additional observations from a re-analysis of the deposited data

How the results depend on the processing

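With 2 libraries per culture the exact tests cannot pass 0.05, and the lists hold no region under the caller's threshold. The difference in peaks between the cultures, 2.5, was -2 with lists shortened to equal length, and -2.5 to 7.5 when libraries were left out in turn. That in bases covered, 5657 bp, kept its direction under all 8 alternatives tried, between 3439.5 bp without G128 replicate 1 and 7874.5 bp without G128 replicate 2.

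By pattern, the 33 shared regions became 22 with a p 10 times below the weakest and 40 without G128 replicate 1. Under the other alternatives they were 31 to 36. The 1 G2-only region became 2 with a p 10 times below the weakest, with lists of equal length and with windows widened by 10 kb, and 2 to 8 without each library. The 0 G128-only regions became 1 with 50% reciprocal overlap, 2 with lists of equal length, and 0 to 2 without each library.

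Without scaling, 6 of the windows' regions were called higher on G2, among 5869 higher and 68 lower in all, where the general shift of 0.33 stays in by construction. These included Itgb3 regions 2, 3 and 7, Itga5 region 12 and Itgav region 2. With the intensity trend 167 and 240 of all regions were called higher and lower, with means under 40 left out 27 and 29 among fewer tested, and without each library 0 to 53 and 0 to 155, the high values without G2 replicate 2; the cause was not tested. With the replicate block 274 and 656 were called, and 1 region of the windows, Itgav region 5, was lower on G2 (adjusted p = 0.0142). The labels give the replicate numbers no meaning across cultures, so the main fit does not take them as pairs. Deviations of same-numbered libraries correlated at 0.0028, which cannot decide whether the libraries were paired.

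Of the median differences, no scaling gave 0.35, 0.050, 0.33, 0.45 and 0.26 at Itga5, Itgav, Itgb1, Itgb3 and Itgb5. The deposited signal gave -0.12 at Itga5 and 0.12 at Itgb5, and leaving out means under 40 gave -0.11 at Itgav; the cause was not tested. Leaving out each library, which also redefined the shared regions, gave -0.12 to 0.085 at Itga5 and -0.40 to -0.048 at Itgav. It gave -0.18 to 0.19 at Itgb1, 0.049 to 0.18 at Itgb3 and -0.24 to -0.025 at Itgb5. The remaining alternatives moved each median by less than the spread between replicates.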
